A study of Mus musculus with 12 samples.

Results

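The genes described here are Fas, Tnfrsf1a, Fadd, Casp8, Cflar and Ripk1, which code for death receptors of the TNF receptor family and for the proteins that gather at them to start or to hold back caspase activation. They were taken by symbol, each read by the probe sets that the annotation of the Affymetrix mouse genome array assigns to that symbol alone. By this rule, 5 of the 6 genes were measured, with 10 probe sets of the 45037 in the table, while the table as a whole held 18193 genes with a probe set of their own. Fas, Tnfrsf1a and Casp8 had 1 probe set each, Fadd had 2 and Cflar had 5. The annotation used here names no probe set for Ripk1, so its level was not analysed here.

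The arrays measured mRNA of CD4 single positive (SP) thymocytes, the T cells of the thymus that have passed positive selection and have lost CD8. Cells from pooled thymi of C57BL/6 mice aged 6 to 8 weeks were sorted as CD4+CD8-CD25-NK1.1- and divided into 4 subsets that the study orders as successive stages, with 3 arrays each. SP1 cells were Qa-2-6C10+CD69+, SP2 cells were Qa-2-6C10-CD69+, SP3 cells were Qa-2-6C10-CD69- and SP4 cells, the most mature, were Qa-2+6C10-CD69-. No subset was treated. The gate removed CD25+ and NK1.1+ cells but not CD44 high cells, and each array is a pool of animals and not a single mouse.

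Fas is bound by Fas ligand and carries a death domain in its cytoplasmic part, through which it recruits the adaptor FADD. FADD in turn binds caspase-8, which becomes active when several copies are brought together and then cleaves other caspases and BID. The product of Cflar, c-FLIP, resembles caspase-8 but lacks a working catalytic site, and its ratio to caspase-8 is known to bear on whether the complex kills the cell. TNFR1, the product of Tnfrsf1a, binds TRADD and RIPK1 first, and from there signals mostly to NF-κB unless FADD and caspase-8 join later. In T cells the Fas pathway is known for the removal of activated and self-reactive cells, and loss of Fas in mice leads to enlarged lymph nodes and autoantibodies.

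Casp8 and Cflar are neighbours on chromosome 1 of the mouse. In the GRCm38.p6 annotation of RefSeq, Cflar spans chr1:58711311-58758884 and Casp8 spans chr1:58795233-58847503, with 36348 bases and 1 annotated gene, the long non-coding RNA Gm39646, between them. Their promoter windows, 250 bases before and 50 after a start site on the + strand, are shown because these were the members with the largest differences between SP4 and SP1. The Cflar window is chr1:58711241-58711540, and capitals mark its match to the core of the interferon-stimulated response element, which is GAAA, any 2 bases and GAAA again, here read on the opposite strand just after the start site. The Casp8 window is chr1:58802252-58802551, and it holds no match to the motifs searched. The start sites of both windows lie inside the annotated genes, after the first base of the spans given above.
Cflar: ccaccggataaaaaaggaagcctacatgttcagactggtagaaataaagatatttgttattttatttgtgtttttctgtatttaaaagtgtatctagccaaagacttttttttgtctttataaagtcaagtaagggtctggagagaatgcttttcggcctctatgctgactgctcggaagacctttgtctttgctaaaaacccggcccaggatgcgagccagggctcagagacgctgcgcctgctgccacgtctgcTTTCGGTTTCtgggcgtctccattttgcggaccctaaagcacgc
Casp8: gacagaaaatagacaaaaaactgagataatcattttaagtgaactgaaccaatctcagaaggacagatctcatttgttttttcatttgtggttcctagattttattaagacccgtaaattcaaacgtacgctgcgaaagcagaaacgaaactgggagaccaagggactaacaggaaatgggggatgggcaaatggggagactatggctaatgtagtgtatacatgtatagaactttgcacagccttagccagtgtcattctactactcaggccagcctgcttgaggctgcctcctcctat
The motifs were searched on both strands, namely that core, the GC box GGGCGG, the ETS motif CCGGAAG, the FOXO motif GTAAACA and the consensus of NF-kappaB. Among 32851 RefSeq promoter windows of the same length, the interferon-stimulated core was found in 3.44%, GGGCGG in 35.7%, CCGGAAG in 8.86%, GTAAACA in 3.65% and the NF-kappaB consensus in 8.46%. The Fas window on chromosome 19 and the Fadd window on chromosome 7 each held 2 matches to GGGCGG, and the Tnfrsf1a window on chromosome 6 held 1 match to CCGGAAG. The 2 windows of Ripk1 on chromosome 13 held 3 and 7 matches, 1 of them to the interferon-stimulated core. A match is a run of letters in the sequence, and no binding was measured.

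Values below are linear intensities as deposited, and levels are not compared between probe sets. Differences are log2 fold changes of intensity plus 16, tested with limma on the 12 arrays together. Each p was adjusted over all probe sets of the table within its comparison, and a gene was called at an adjusted p under 0.05. Because arrays that share a replicate number also deviated together from their subset means, a second fit that takes this number as a block is given where it changes a call. In SP4 vs SP1, the widest comparison, 276 of the 18193 genes (1.52%) were called without the block and 1103 (6.06%) with it. Of the 5 measured genes, 0 were called without the block and 1, Casp8, was called with it. With 5 genes measured, 1 call is read as no more than a value for that gene. Lack of overlap between the arrays of subsets is given below as a description. The share of all probe sets that are separated in this way was not counted.

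Casp8, which codes for the initiator caspase of this pathway, was lowest in SP1 and highest in SP4 in each replicate number. Its intensity was 773, 1017 and 679 in SP1, 1042, 1275 and 687 in SP2, 953, 1314 and 730 in SP3, and 1340, 1478 and 791 in SP4 (replicates 1, 2 and 3 of each). Replicate 3 was the lowest array in every subset, so that the 3 arrays of SP4 overlapped with those of SP1 although SP4 was the higher in each of the 3 same-number pairs. The means were 1203 ± 363 in SP4 and 823 ± 175 in SP1 (SD, n = 3 each). The SP4 vs SP1 log2 fold change was 0.51, with an SE of 0.31 and an adjusted p of 0.843 without the block, and with an SE of 0.13 and an adjusted p of 0.0357 with it. By pair it was 0.78, 0.53 and 0.22 for replicates 1, 2 and 3. SP2 and SP3 lay at nearly the same level, 1001 ± 296 and 999 ± 295, and the differences of 0.25 between SP2 and SP1 and of 0.26 between SP4 and SP3 did not pass the test with or without the block. The linear trend over the 4 subsets was 0.15 log2 units per step (adjusted p = 0.891 without the block and 0.0451 with it). In the trend, 1.56% of all genes were called without the block and 6.38% with it.

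The call for Casp8 with the block was lost when any of 9 of the 12 arrays was left out, namely SP1 replicates 1 and 2, SP2 replicate 3 and each of the 3 arrays of SP3 and of SP4, with adjusted p between 0.0516 and 0.215. It was also lost without replicates 1, 2 or 3 as a whole (adjusted p of 0.423, 0.122 and 0.120), and when the fit held only the arrays of SP4 and SP1 (0.0887). The call of the trend with the block was lost without any of 10 of the 12 arrays, all except SP2 replicate 2 and SP1 replicate 3 (adjusted p up to 0.230). The log2 fold change of SP4 vs SP1 stayed between 0.37 and 0.66 over these fits with an array or a replicate number left out.

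**Figure D1:**
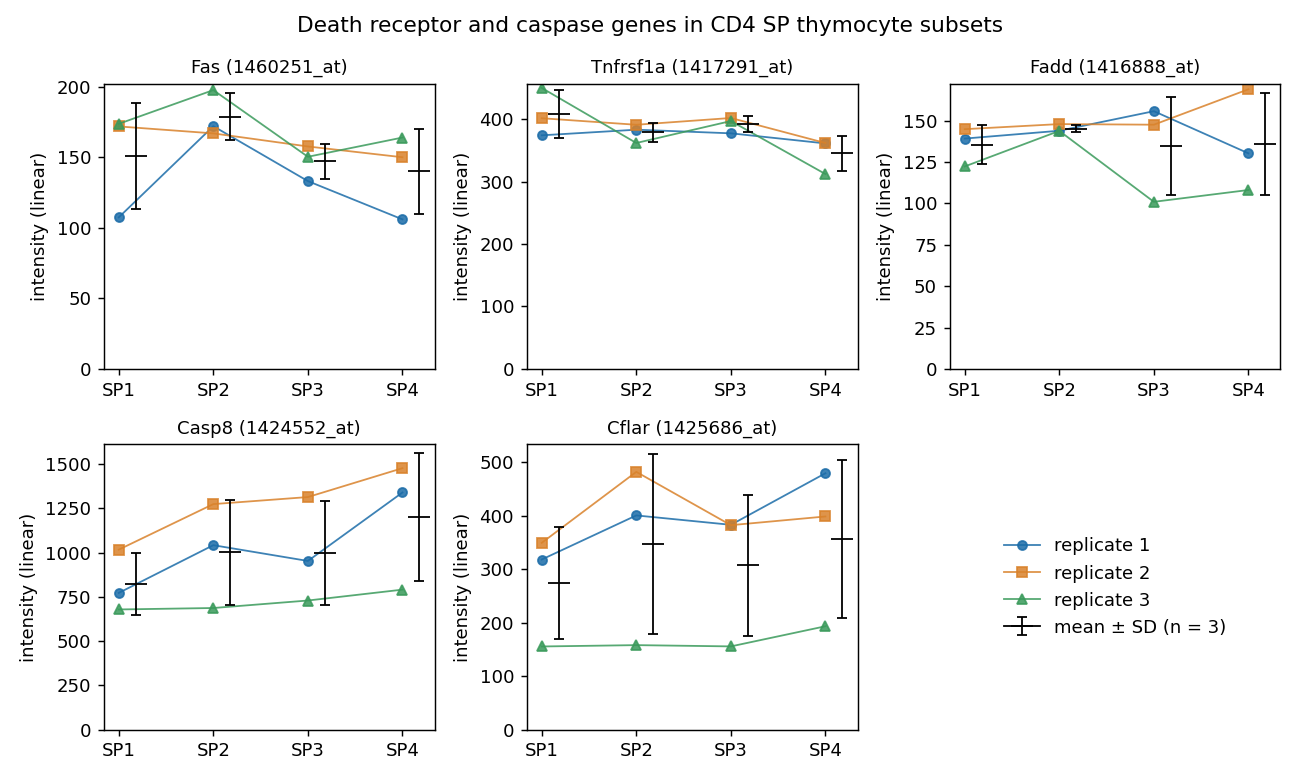
Linear intensity of the 5 measured genes (representative probe set in brackets) in the 4 subsets. Coloured points joined by lines are the arrays of 1 replicate number, and black marks give the mean ± SD of 3 arrays. The Casp8 arrays of SP4 lie above those of SP1 of the same number, and replicate 3 is the lowest array of every subset for Casp8 and for Cflar.

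Cflar, which codes for the caspase-8 inhibitor c-FLIP, had 5 probe sets that did not move together. The probe set of highest mean, 1425686_at, read 479, 398 and 193 in SP4, against 318, 349 and 155.5 in SP1, with SP4 the higher in 3 of 3 pairs. Its log2 fold change was 0.35 (SE 0.49, 95% interval -0.72 to 1.42), and as for Casp8 the arrays of replicate 3 were low in every subset. Left out singly, SP1 replicate 3 took the value to 0.0039, SP4 replicate 1 to 0.096 and SP4 replicate 3 to 0.72, the lowest 2 and the highest over the 12 arrays. SP2, at 400.4, 482 and 158, and SP3, at 383, 382 and 156, lay between SP1 and SP4 in their means. None of these differences passed the test.

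A pair of the other Cflar probe sets did not overlap between SP4 and SP1. Probe set 1424996_at read 363, 298 and 272 in SP4, against 190.0, 265 and 229 in SP1, a log2 fold change of 0.43 (SE 0.19, adjusted p = 0.592). Probe set 1425687_at read 106, 93.8 and 93.1 in SP4, against 56.7, 82.3 and 75.9 in SP1, a log2 fold change of 0.38 (SE 0.16, adjusted p = 0.537). Every SP4 array was above every SP1 array in these 2 probe sets, but neither was called, and in SP4 vs SP1 1.08% of all probe sets were called without the block. The share of all probe sets with such a separation was not counted.

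Probe set 1449317_at ran the other way, with 228, 215 and 184 in SP4, against 230.0, 295 and 253 in SP1. Its log2 fold change was -0.29 (SE 0.15, adjusted p = 0.758), SP4 was the lower in 3 of 3 pairs, and the arrays did not overlap. Probe set 1453482_at read 73.2, 135 and 113 in SP4, against 69.3, 64.5 and 114 in SP1, a log2 fold change of 0.32 that came mostly from replicate 2. The 5 probe sets of Cflar thus ranged between -0.29 and 0.43 in SP4 vs SP1. Which transcripts of Cflar each probe set detects was not examined here. The opposite course of 1449317_at was noted after its values were seen and was not tested. With the block, the lowest adjusted p of the 5 probe sets in this comparison was 0.126.

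**Figure D2:**
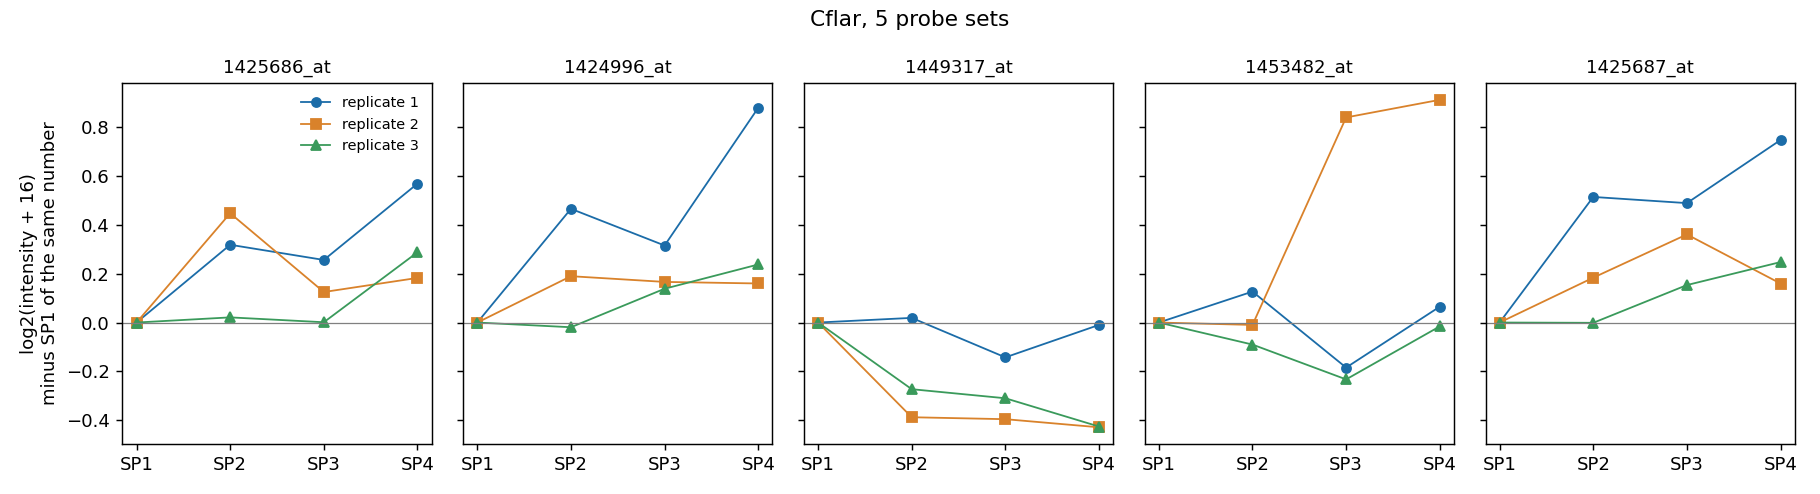
The 5 probe sets of Cflar, as log2(intensity + 16) of each array minus that of the SP1 array of the same replicate number, by subset. Points joined by lines are the arrays of 1 replicate number. In SP4, 1425686_at, 1424996_at and 1425687_at lie above 0 in 3 of 3 replicates and 1449317_at lies below 0 in 3 of 3.

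Fas was highest in SP2 and lowest in SP4. Its intensity was 107, 172 and 174 in SP1, 172, 167 and 198 in SP2, 133, 158 and 150.3 in SP3, and 106, 150.0 and 164 in SP4. The means were 140 ± 30.3 in SP4 and 179 ± 16.4 in SP2 (SD, n = 3 each). Every SP4 array was below every SP2 array, the nearest values being 164 in SP4 and 167 in SP2. How many probe sets of the table are separated like this was not counted. The SP4 vs SP2 log2 fold change was -0.34 (SE 0.21, 95% interval -0.79 to 0.12, adjusted p = 0.951), where 0.775% of all genes were called without the block. With the block the adjusted p was 0.275. The ends of the series overlapped: SP4 vs SP1 gave -0.090, with a 95% interval of -0.54 to 0.36, and SP4 was the lower in 3 of 3 pairs.

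Tnfrsf1a, which codes for the main receptor of TNF, was lowest in SP4. Its intensity was 374, 402 and 450.2 in SP1, 383, 391 and 362 in SP2, 377, 402 and 397 in SP3, and 361, 362 and 312 in SP4. All SP4 arrays lay below all SP1 arrays, with means of 345 ± 28.5 in SP4 and 409 ± 38.4 in SP1 (SD, n = 3 each). By pair the log2 difference was -0.049, -0.14 and -0.51 for replicates 1, 2 and 3. How many probe sets of the table are separated like this was not counted. The log2 fold change was -0.23 (SE 0.14, 95% interval -0.55 to 0.08), with an adjusted p of 0.857 without the block and 0.358 with it. SP2 and SP3 held intermediate means of 379 ± 15.1 and 392 ± 13.0.

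Fadd, the adaptor that links the receptors to caspase-8, was at a similar level in the 4 subsets. Its probe set 1416888_at read 139, 145 and 122 in SP1, 144, 148 and 144 in SP2, 156, 148 and 101 in SP3, and 130.3, 169 and 108 in SP4. The SP4 vs SP1 log2 fold change was -0.013 (SE 0.19), and the 95% interval of -0.43 to 0.40 bounds the difference. The dimmer probe set of the same gene, 1446499_at, stayed between 38.1 and 59.0 over the 12 arrays and gave -0.066 (SE 0.12).

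No difference between neighbouring subsets passed the test for any of the 5 genes. Ordered by mean log2 value with the lowest subset first, the sequence was SP1, SP2, SP3, SP4 for Casp8 and SP1, SP3, SP2, SP4 for Cflar (1425686_at). It was SP4, SP3, SP1, SP2 for Fas, SP4, SP2, SP3, SP1 for Tnfrsf1a and SP3, SP4, SP1, SP2 for Fadd. Of the 15 neighbouring pairs in these orders, the lowest adjusted p was 0.9996 without the block and 0.496 with it. The arrays of Tnfrsf1a did not overlap in SP4 vs SP2, where the nearest values were 361.90 in SP4 and 361.94 in SP2. Those of Fas did not overlap in SP3 vs SP2, which are neighbours by stage. Over all 6 subset comparisons and 10 probe sets, 0 of 60 tests passed without the block, with 2 at an unadjusted p under 0.05, and 1 passed with it, with 8 at an unadjusted p under 0.05. Of all genes, 3.04% to 9.02% per comparison were at an unadjusted p under 0.05 without the block and 8.28% to 18.2% with it. In the other 5 comparisons the shares of all genes called were 0% for SP2 vs SP1 and for SP3 vs SP2, 0.225% for SP4 vs SP3, 0.011% for SP3 vs SP1 and 0.775% for SP4 vs SP2 without the block, and 0.0055%, 0.28%, 1.5%, 0.44% and 3.42% with it.

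**Figure D3:**
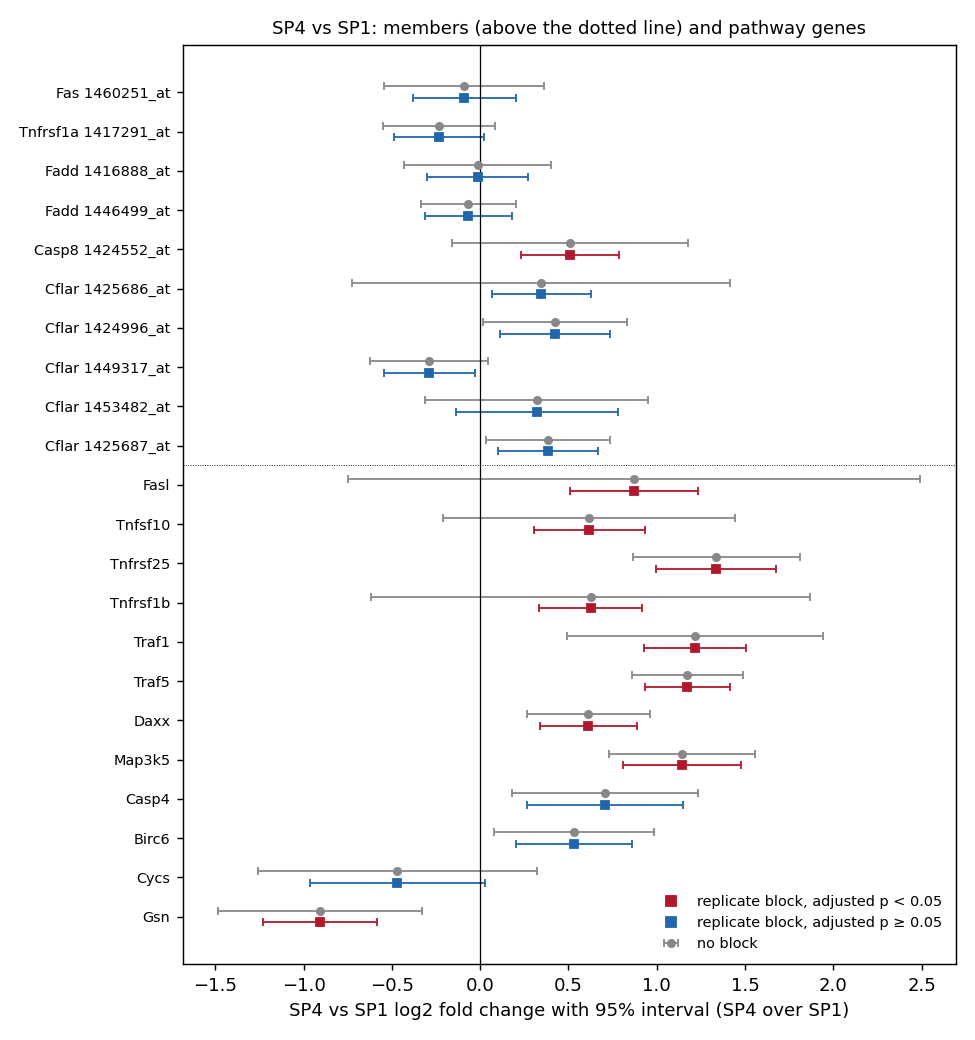
SP4 vs SP1 log2 fold change with its 95% interval for each probe set of the members (above the dotted line) and for pathway genes named in the text. Grey circles are the fit without the block and squares the blocked fit, red where the adjusted p was under 0.05. Among the members the square of Casp8 alone is red, and the interval of Cflar 1449317_at lies on the other side of 0 from that of 1424996_at and 1425687_at with the block.

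The genes that act next to these members were read from 4 lists, of which 66 of 72 genes were measured. In SP4 vs SP1, 3 of the 66 rose and 0 fell without the block, and 8 rose and 1 fell with it, beside 1.22% of all genes higher and 0.297% lower without the block and 4.16% and 1.9% with it. The median log2 fold change was 0.068 over the 66 genes and -0.013 over all genes. The lists were chosen with earlier results of these data known, so these shares stand side by side as a description. With the block 5 rose in SP4 vs SP3, which were Fasl, Map3k5, Tnfrsf1b, Traf1 and Traf5. In SP3 vs SP1 1 rose with the block, which was Tnfrsf25, and in SP4 vs SP2 6 rose and 1 fell. The earlier steps, SP2 vs SP1 and SP3 vs SP2, had 0 of the 66 called with or without the block. Of all genes, 1.21% were higher in SP4 vs SP3, 0.319% higher in SP3 vs SP1, and 2.45% higher and 0.978% lower in SP4 vs SP2 with the block.

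Of the death ligands and the other receptors of the TNF family on the list, 13 of 15 were measured. In SP4 vs SP1, 1 rose without the block and 4 with it. Tnfrsf25, which codes for DR3, a receptor of the TNF family, read 203, 299 and 165 in SP4, against 81.7, 78.6 and 67.3 in SP1. The groups did not overlap, and the log2 fold change was 1.34 (SE 0.22, adjusted p = 0.0122 without the block and 0.0003 with it). Without the block the call was lost when SP1 replicate 2 or SP1 replicate 3 was left out (adjusted p up to 0.056), and without replicate 1 or 2 as a whole (up to 0.428).

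Fasl, the ligand of Fas, read 60.4, 42.3 and 299 in SP4, against 23.6, 31.3 and 106 in SP1. Replicate 3 stood above the other arrays in every subset, so the groups overlapped, and the log2 fold change of 0.87 had an adjusted p of 0.971 without the block and 0.0080 with it. The call with the block was lost without replicate 1 or replicate 3 as a whole (adjusted p up to 0.132), and without the block the fold change lay between 0.13, without SP4 replicate 3, and 1.37, without SP1 replicate 3. In SP2 and SP3 Fasl was at 16.2, 20.3 and 94.3 and at 14.9, 23.6 and 117. SP4 was thus the highest subset within each replicate number. The mean of its receptor, Fas, was lowest in SP4, but its SP4 vs SP1 log2 fold change of -0.090 was not called with or without the block. In replicate 3 Fas was higher in SP4 (164) than in SP3 (150.3).

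Tnfsf10, which codes for TRAIL, read 165, 203 and 63.1 in SP4, against 92.9, 103 and 50.8 in SP1 (log2 fold change 0.62, adjusted p = 0.851 without the block and 0.0260 with it). Tnfrsf1b, which codes for TNFR2, a receptor of TNF without a death domain, read 186, 284 and 580 in SP4, against 119.8, 149.5 and 419.8 in SP1 (0.63, adjusted p = 0.983 and 0.0155). Both groups overlapped in both genes, and SP4 was the higher in 3 of 3 pairs. With the block the call of Tnfrsf1b was lost without SP1 replicate 1 or 2 or any SP4 array (adjusted p up to 0.111), and that of Tnfsf10 without any SP1 array or SP4 replicate 1 or 2 (up to 0.135). Leaving out whole replicate numbers ended the call of Tnfrsf1b for each of the 3 (up to 0.14) and that of Tnfsf10 for replicates 1 and 2 (up to 0.272). The other 9 measured ligands and receptors were not called, among them Tnf at -0.073 and Tnfrsf10b, the mouse TRAIL receptor, at 0.039.

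Of the adaptors, ubiquitin enzymes and kinases of the receptor complexes, 24 of 26 were measured. In SP4 vs SP1, 2 rose without the block and 4 with it. Traf5, an adaptor of several TNF receptors, read 182, 209.6 and 188 in SP4, against 69.4, 84.3 and 76.5 in SP1, with no overlap. Its log2 fold change was 1.17 (SE 0.14, adjusted p = 0.0024), and the call held when any 1 of the 12 arrays was left out but was lost without replicate 1 or replicate 2 as a whole (adjusted p of up to 0.258). Map3k5, which codes for the kinase ASK1, read 339, 285 and 302 in SP4, against 122, 126 and 146 in SP1 (1.14, SE 0.19, adjusted p = 0.0138). Its call without the block was lost when SP1 replicate 1, SP1 replicate 2 or SP4 replicate 1 was left out (up to 0.0716), and without replicate 1 or 2 as a whole (up to 0.415). With the block Traf5, Map3k5, Tnfrsf25 and Traf1 were called without any 1 of the 3 replicate numbers.

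Traf1, an adaptor that binds TRAF2 and the cellular IAPs, read 231, 227 and 444 in SP4, against 91.6, 111 and 145 in SP1, again with no overlap. Its log2 fold change was 1.22 (SE 0.33, adjusted p = 0.157 without the block and 0.0002 with it). Replicate 3 was the highest array of Traf1 in every subset. Daxx, first described as a protein that binds Fas, read 755, 907 and 708 in SP4, against 481, 553 and 493 in SP1, with no overlap (0.61, adjusted p = 0.131 without the block and 0.0127 with it). The call of Daxx with the block was lost when any SP1 array or SP4 replicate 2 was left out (up to 0.0750), and without replicate 1 or 3 as a whole (up to 0.153). The remaining 20 genes, which include Tradd at 0.29, Traf2 at 0.030, Birc2 at 0.27, Birc3 at 0.48 and Ripk3 at -0.20, were not called.

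**Figure D4:**
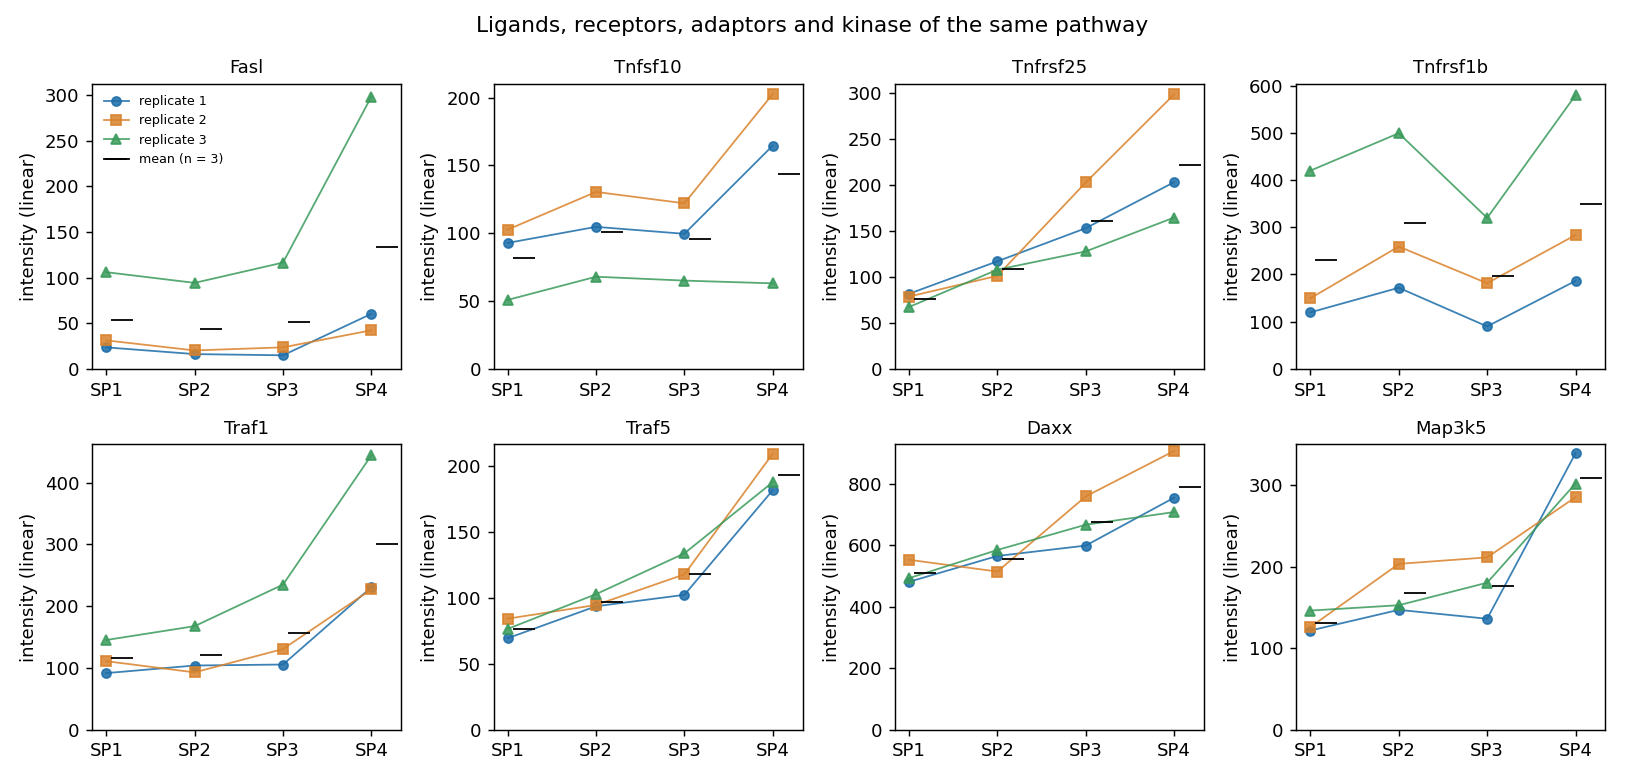
Linear intensity of 8 ligand, receptor, adaptor and kinase genes of the same pathway in the 4 subsets. Coloured points joined by lines are the arrays of 1 replicate number and black marks are means of 3 arrays. For Traf5, Tnfrsf25, Map3k5, Traf1 and Daxx every SP4 array lies above every SP1 array. Replicate 3 is the highest array of every subset for Fasl, Tnfrsf1b and Traf1 and the lowest for Tnfsf10.

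Of the other caspases and their inhibitors, 13 of 15 were measured. In SP4 vs SP1, 0 were called with or without the block, with 4 at an unadjusted p under 0.05 without it, beside 9.02% of all genes. With the block, 1 was higher in SP4 vs SP2, Casp1 (log2 fold change 0.60, adjusted p = 0.0154), beside 2.45% of all genes. Likewise 1 was higher in the trend with the block, beside 6.38% of all genes called in either direction. Casp4, an inflammatory caspase, and Birc6, a large inhibitor of apoptosis protein, had the largest positive differences, 0.71 (adjusted p = 0.332 without the block and 0.0693 with it) and 0.53 (0.471 and 0.0688). Casp4 was dim, at 29.8, 52.9 and 89.7 in SP4, against 29.1, 30.9 and 20.1 in SP1, beside array medians of 30.5 to 32.8. By pair its log2 difference was 0.021, 0.55 and 1.55 for replicates 1, 2 and 3, so it came mostly from replicate 3. Casp4 passed when SP4 replicate 1 was left out (0.0474 without the block and 0.0080 with it), and Birc6 passed with the block when SP2 replicate 2 was left out (0.0217). In SP4 vs SP1 Casp1, which processes interleukin-1β, was at 0.37, the executioner Casp6 at -0.35 and the mitochondrial initiator Casp9 at -0.090. The median over the 13 genes was 0.14.

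The 16 genes of the mitochondrial link and the caspase substrates were all measured. In SP4 vs SP1, 12 of them had differences below 0, with a median of -0.17, beside 55.1% of all genes below 0. Of the 16, 1 was called in SP4 vs SP1, and only with the block. With the block, 1 was also lower in SP4 vs SP2, beside 0.978% of all genes. In the trend 2 were lower with the block, beside 6.38% of all genes called in either direction. The gene called in SP4 vs SP1 was Gsn, which codes for gelsolin, an actin-severing protein and caspase substrate. It read 458, 556 and 372 in SP4, against 737, 988 and 898 in SP1, with no overlap. Its log2 fold change was -0.90 (SE 0.26, adjusted p = 0.202 without the block and 0.0030 with it). The call was lost without replicate 3 as a whole (adjusted p = 0.0836 with the block). Bid, the protein through which caspase-8 reaches the mitochondrion, was at -0.31 (adjusted p = 0.594 with the block) and Cycs, cytochrome c, at -0.47 (0.335).

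Genes of other cell types differed between the same arrays. Markers of the CD4 T lineage were present on all arrays, with summed intensities of 12456 to 15505 in SP4 and 13163 to 15994 in SP1 (6 of 7 measured). NKT and innate-like T cell markers (10 of 10 measured) summed to 1854 to 2692 in SP4, against 253 to 1746 in SP1. Of the 10, 6 rose without the block and 7 with it, beside 1.22% and 4.16% of all genes. Klrb1a, among those called, read only 4.7 to 14.2 over the arrays. Gzma, the marker of highest mean in SP1, went the other way, with means of 463 in SP4 and 884 in SP1 (-0.093, not called). Il12rb2 was also lower (-0.19, not called). Markers of activated or memory T cells (6 of 6) summed to 2672 to 4081 in SP4, against 1259 to 2032 in SP1, and 1 rose without the block and 5 with it. Markers of regulatory T cells (6 of 6) summed to 2408 to 4052 in SP4, against 2278 to 3788 in SP1, with 1 higher without the block and 3 with it, and those of myeloid and dendritic cells (8 of 8) to 739 to 1333, against 247 to 838. B cell markers (5 of 6) summed to 158 to 390 in SP4 and 135 to 482 in SP1, those of thymic epithelial and stromal cells (7 of 7) to 164 to 201 and 164 to 228, and those of erythroid cells (2 of 4) to 18.6 to 21.1 and 15.7 to 23.3.

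Markers of double positive and CD8 thymocytes (8 of 9 measured, Rag1, Dntt and Cd8a among them) varied widely between arrays of the same subset. They summed to 7065, 7137 and 772 in SP1, 2159, 562 and 815 in SP2, 13326, 7314 and 2103 in SP3, and 3211, 3110 and 931 in SP4. In replicates 1 and 2 the sum was thus lower in SP4 than in SP1, and Casp8 was higher by 0.78 and 0.53. In replicate 3 the sum was slightly higher in SP4, and Casp8 was higher by 0.22. From SP2 to SP3 the sum rose in each replicate number, and Casp8 differed by -0.13, 0.044 and 0.084 in replicates 1, 2 and 3. Intensities of an array have no true 0, and the lowest single value of the list was 11.4 against array medians of 30.5 to 32.8. The part of these cells in the differences of Casp8, Cflar, Fas and the pathway genes was not tested. In sorted bulk samples, fewer cells of a type and less RNA per cell cannot be told apart.

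**Figure D5:**
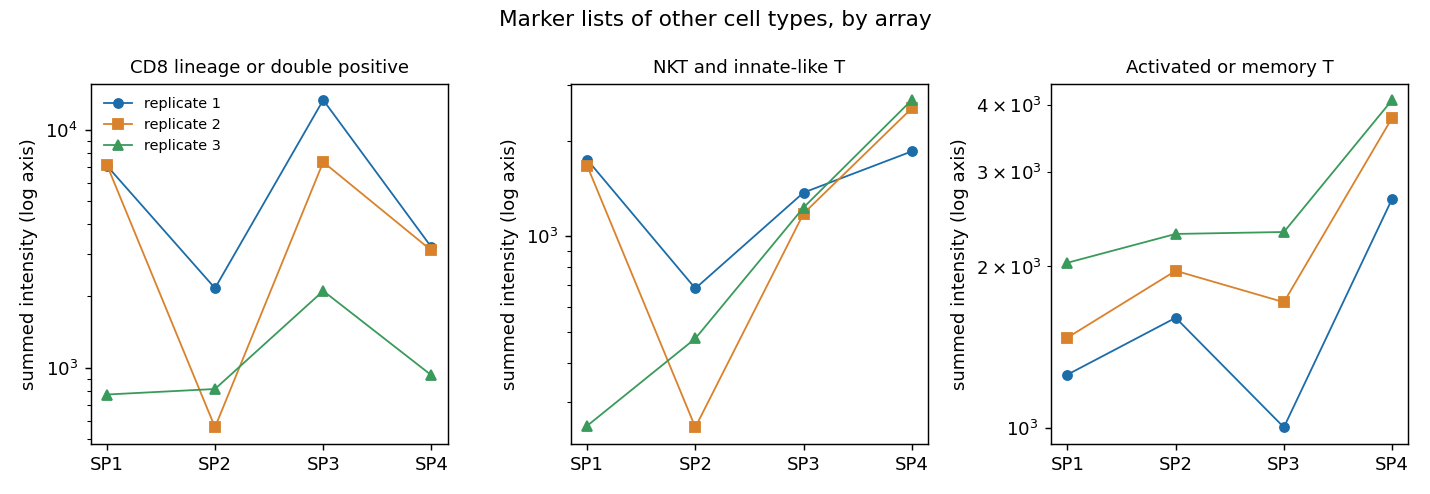
Summed intensity (log axes) of the marker genes of 3 other cell types, by subset, with the arrays of 1 replicate number joined by lines. The double positive sums are high in SP1 and SP3 of replicates 1 and 2, and the NKT and activated sums are highest in SP4 in each replicate number.

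The genes whose course over the 12 arrays was most like that of each member were sought among 7182 genes with a mean intensity over 100, by Pearson's r after the mean of each replicate number was removed, given as a description across arrays that share subsets and replicate numbers. For Casp8 these were Slfn2, Kbtbd11 and Uimc1 (r of 0.979, 0.977 and 0.976, and 0.586, 0.501 and 0.479 without that step). Their SP4 vs SP1 log2 fold changes were 0.93, 1.20 and 0.46, beside 0.51 for Casp8. For Cflar they were Stxbp3, Ints6 and Fam120b (0.947, 0.942 and 0.937, and 0.499, 0.609 and 0.594 without that step), with fold changes of 0.29, 0.40 and 0.38. For Fas they were 1700025G04Rik, Mrrf and Abcb9 (0.858, 0.853 and 0.840, and 0.915, 0.696 and 0.148 without that step). For Tnfrsf1a they were Tmem198b, Stk11 and Sart3 (0.941, 0.906 and 0.889, and 0.840, 0.726 and 0.865 without it). For Fadd they were Lsm12, Smpd1 and Pex2 (0.848, 0.834 and 0.829, and 0.615, 0.845 and 0.863 without it).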

How the data were processed

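The deposited table gives linear probe set intensity for 12 arrays, background-corrected and normalized by the authors, RMA by the paper's methods and MAS5 by the submitters' notes (versions not given in the sources used here). An offset of 16 was added and log2 taken. One mean per subset was fitted to 12 arrays with limma 3.58.1 in R 4.3.3 (eBayes with a trend, 8 residual degrees of freedom), with Benjamini-Hochberg adjustment over 45037 probe sets within each comparison. By the annotation 34945 probe sets name 1 gene, 932 several and 9160 none here, and a gene was read by its probe set of highest mean, those ending in _x_at coming last.

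Arrays of 1 replicate number, a number given in the labels, deviated together from their subset means (r between 0.279 and 0.883 over the same-number pairs). Replicates 1 and 2 also correlated with each other (0.178 to 0.729), and both correlated negatively with replicate 3 (-0.812 to -0.388). Deviations from a mean of 3 arrays sum to 0. Some correlations between numbers must therefore be negative where arrays of a number deviate together, and the sign shows no opposite course. Over the whole table, the first principal component held 56.8% of the variance. It placed the replicate 3 arrays at 0.383 to 0.425 and the arrays of replicates 1 and 2 at -0.281 to -0.121. A replicate 3 that lies apart is thus not particular to the genes named here. A blocked fit, leaving 6 residual degrees of freedom, was made too. The labels call the arrays biological replicates. The paper names 3 array repeats that each cover the 4 subsets, and the sources used here do not tie them to the numbers.

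The members and lists were chosen with earlier results of these data known. Named were the members with every probe set, the called genes of each list or else its 2 largest differences, and the 3 genes most like each member. Genes listed beside them for their role were chosen after their values were seen. On data simulated for SP4 vs SP1 over 45037 probe sets, 34 of 100 probe sets changed by a log2 of 1 and 74 of 100 changed by a log2 of 2 were called. Another 7 probe sets, with no change put in, were called too. The simulated noise was independent between arrays, with no shared replicate numbers, and the changed probe sets had a mean intensity over 100. Only the fit without the block was simulated. Alternatives were offsets of 0 and 64, quantile normalization once more, a mean intensity over 50, only the subsets compared, no mean-variance trend, the mean of all probe sets of a gene, and each array or replicate number left out. The same alternatives with the block were added after the data were seen. Promoter sequences are those of RefSeq, GRCm38.p6, matched by symbol for all 6 genes.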

Additional observations from a re-analysis of the deposited data

How the results depend on the processing

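No member gene was called in any of the 6 comparisons or the trend without the replicate block under any alternative, save that the block itself made 1 call in SP4 vs SP1 and 1 in the trend, both of Casp8, and it changed no other call of a member. With the block, the count of members called in SP4 vs SP1 was 0 when only these subsets were fitted and between 0 and 1 with arrays left out, and in the trend it was 0 after quantile normalization and between 0 and 1 with arrays left out. Of the pathway genes higher in SP4 vs SP1, 3 without the block became 8 with the block and 0 with only the subsets compared, where Traf5, Tnfrsf25 and Map3k5 were lost, and between 0 and 4 with arrays left out. With the block the 8 ranged between 5 and 11 with arrays left out. Pathway genes lower numbered 0 without the block and 1 with the block, and with the block 3 by the mean of all probe sets of a gene and between 0 and 1 with arrays left out. With arrays left out, the SP4 vs SP1 log2 fold changes near 0 changed sign: Fadd 1416888_at ranged between -0.17 and 0.12, Fadd 1446499_at between -0.12 and 0.043 and Fas between -0.29 and 0.077. The cause of these changes was not tested, beyond the smaller number of arrays in the fits without an array. The number of arrays limits the precision.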
